A study of Mus musculus with 19 samples.

Results

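The Meg3-side miRNAs are the mature products of 6 precursors, miR-770, miR-673, miR-493, miR-337, miR-540 and miR-665, that lie at the upstream end of the imprinted Dlk1-Dio3 region of mouse chromosome 12. They were chosen by name, both arms of each precursor, and made up 12 of the 1148 miRNA rows counted in each library. Small RNA was sequenced from the CA1 subregion of the hippocampus of wild-type mice of the strain spelled C57B/6JRj, dissected under a microscope and snap-frozen. The 6 OldSAHA libraries came from mice of 20 months given SAHA by mouth for 4 weeks, in water with 0.67 g SAHA and 18 g cyclodextrin per L. The 5 OldVeh libraries came from mice of 20 months given the cyclodextrin water alone for 4 weeks, and the 8 YoungVeh libraries from mice of 3 months given the cyclodextrin water, for a time not given in the sources used here. All groups therefore share the cyclodextrin vehicle, and there is no young group with SAHA. SAHA (vorinostat) inhibits histone deacetylases, the enzymes that remove acetyl groups from histones.

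The Dlk1-Dio3 region is imprinted: the protein-coding genes Dlk1, Rtl1 and Dio3 are expressed from the paternal chromosome, while the long noncoding RNAs Meg3, Rian and Mirg and the miRNAs beside them are expressed from the maternal one. A miRNA precursor is a hairpin cut out of a longer transcript, and either of its strands, the 5p arm and the 3p arm, can be loaded into an Argonaute protein, where its seed pairs with target messenger RNAs. The miRNAs of this region are known for their high expression in brain and placenta.

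The miRNA annotation release behind the counts was not given, so the sequences of all 12 arms are matched by name only. These sequences show that the arms do not share a seed. They are from RefSeq for GRCm38.p6, where all 12 names matched, and run 5′ to 3′ with the seed, bases 2 to 8, in capitals.
miR-770-5p: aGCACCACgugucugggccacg
miR-770-3p: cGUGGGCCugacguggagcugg
miR-673-5p: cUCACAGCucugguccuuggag
miR-673-3p: uCCGGGGCugaguucugugcacc
miR-493-5p: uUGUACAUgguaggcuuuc
miR-493-3p: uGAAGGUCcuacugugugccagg
miR-337-5p: cGGCGUCAugcaggaguugauu
miR-337-3p: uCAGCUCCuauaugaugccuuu
miR-540-5p: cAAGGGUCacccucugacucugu
miR-540-3p: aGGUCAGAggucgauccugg
miR-665-5p: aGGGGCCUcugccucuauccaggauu
miR-665-3p: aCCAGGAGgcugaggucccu

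The 12 seeds were all distinct, and none of them recurred in any other miRNA of the count tables whose RefSeq sequence was matched. The arms were 19 to 26 bases long, and their GC content ran from 40.9% to 72.7%. All 6 precursors lie on the plus strand of chromosome 12 in GRCm38.p6. Mir770 spans 109563692 to 109563785 and overlaps an exon of the long noncoding RNA Meg3, which spans 109541001 to 109571726 in GENCODE M21. Mir673 spans 109571990 to 109572080, just past the annotated end of Meg3, and Mir493 spans 109580233 to 109580315. Mir337 (109585789 to 109585885), Mir540 (109586080 to 109586146) and Mir665 (109586314 to 109586407) sit within 619 bases of each other, before Rtl1, which spans 109589193 to 109600330 on the minus strand. None of the last 5 precursors overlaps a GENCODE M21 gene other than the miRNA genes themselves, and the 6 precursors together span 22716 bases.

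Total counts assigned to miRNAs were 4211365 to 5410804 in OldSAHA libraries, 4642434 to 5249168 in OldVeh libraries and 3585489 to 6808281 in YoungVeh libraries. The tissue label was checked with marker miRNAs: a list of 15 neuron-enriched miRNAs (miR-124, miR-9, miR-128, miR-138, miR-153 and miR-218 arms) summed to 73343 to 95587 CPM across libraries (counts scaled to library size with TMM), against 69.8 to 136 CPM for a list of 9 muscle miRNAs. A list of 6 endothelial and mural miRNAs summed to 53181 to 65592 CPM in 4 libraries (OldSAHA 1 and 3, OldVeh 2 and YoungVeh 4) and to 25989 to 39014 CPM in the other 15. OldSAHA 1 was the library least like the rest of its group (r of 0.991 over log2 CPM), and it was the lowest of the 6 OldSAHA libraries for 7 of the 10 tested Meg3-side miRNAs. Its list of 5 oligodendrocyte miRNAs summed to 8102 CPM, against 3740 to 5558 CPM in the other OldSAHA libraries. Its microglia and immune list summed to 2536 CPM, against 1379 to 1833 CPM in those libraries. OldVeh 2 was the lowest of the 5 OldVeh libraries for 8 of 10. YoungVeh 6, left out together with OldSAHA 1 in one alternative below because an earlier look at these data had set both apart, had an r of 0.995 with the rest of its group, within the range of its group. Neither sex nor sequencing batch is recorded in the labels. Each library is labelled as a sample of its group, with no statement of separate animals, so p-values measure the spread between these samples.

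The Meg3-side miRNAs were a small part of the CA1 miRNA pool. Together they took 0.0897% ± 0.0109 of all counts in OldSAHA libraries (SD, n = 6), 0.0979% ± 0.00691 in OldVeh libraries (SD, n = 5) and 0.101% ± 0.00749 in YoungVeh libraries (SD, n = 8). In CPM their sum was 883 ± 90.3 in OldSAHA, 971 ± 67.5 in OldVeh and 1028 ± 54.1 in YoungVeh. miR-673 alone gave 45.9% of the counts of the 6 precursors in OldSAHA, 50.9% in OldVeh and 52.8% in YoungVeh. miR-540 gave 24.1%, 21.8% and 21.3% in the same order of groups, miR-337 gave 16.9%, 16.6% and 15.8%, and miR-770 gave 10.3%, 8.59% and 7.81%. miR-493 and miR-665 each stayed below 2% in every group. Levels of different miRNAs also carry the bias of adapter ligation in small RNA libraries, which depends on sequence, so the order of levels is that of read counts.

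The most abundant arm was miR-673-5p, with a mean of 361 ± 59.2 CPM over the 19 libraries and rank 136 of 509 tested miRNAs. miR-540-3p followed at 182 ± 22.01 CPM, and in all 19 libraries it was below miR-673-5p and above miR-337-5p. miR-337-5p at 132 ± 14.1 CPM and miR-673-3p at 124 ± 14.5 CPM were not apart beyond their spread, with miR-337-5p the higher in 12 of 19 libraries. The same held for miR-770-5p at 43.2 ± 7.38 CPM, miR-770-3p at 41.4 ± 9.91 CPM and miR-540-5p at 33.3 ± 5.01 CPM, where each exceeded the next in 13 of 19 libraries. miR-540-5p exceeded miR-337-3p, at 25.4 ± 3.56 CPM, in 16 of 19 libraries. The least abundant arms that could be tested were miR-665-3p at 11.4 ± 1.73 CPM and miR-493-5p at 10.5 ± 1.64 CPM, with miR-665-3p the higher in 12 of 19.

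Within the hairpins, either arm could lead. The 5p arm took 87.7% of the counts of miR-493, 84.0% of miR-337 and 74.5% of miR-673. The 3p arm led in the pair of hairpins nearest to Rtl1, with the 5p arm at 15.5% of the counts of miR-540 and 1.06% of those of miR-665. miR-770 was close to even, with 51.1% from the 5p arm, and its 5p arm was the higher in 13 of 19 libraries. In all 19 libraries the 5p arm exceeded the 3p arm for miR-673 and miR-337.

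A pair of the 12 arms had too few counts to test. miR-493-3p had 4 to 16 counts per OldSAHA library, 4 to 10 per OldVeh library and 3 to 12 per YoungVeh library. miR-665-5p had at least 1 count in 5 of 6 OldSAHA libraries (8 counts in all, at most 4 in a library), in 0 of 5 OldVeh libraries and in 2 of 8 YoungVeh libraries (4 counts in all). A limit of 3 counts over the OldVeh group corresponds to 0.121 CPM before TMM scaling, which covers counting error only. At this depth no difference in miR-665-5p could be tested. The filter kept miRNAs with enough counts in at least as many libraries as the smallest group holds, and the counts below are of the 10 arms that passed, not of all 12.

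**Figure D1:**
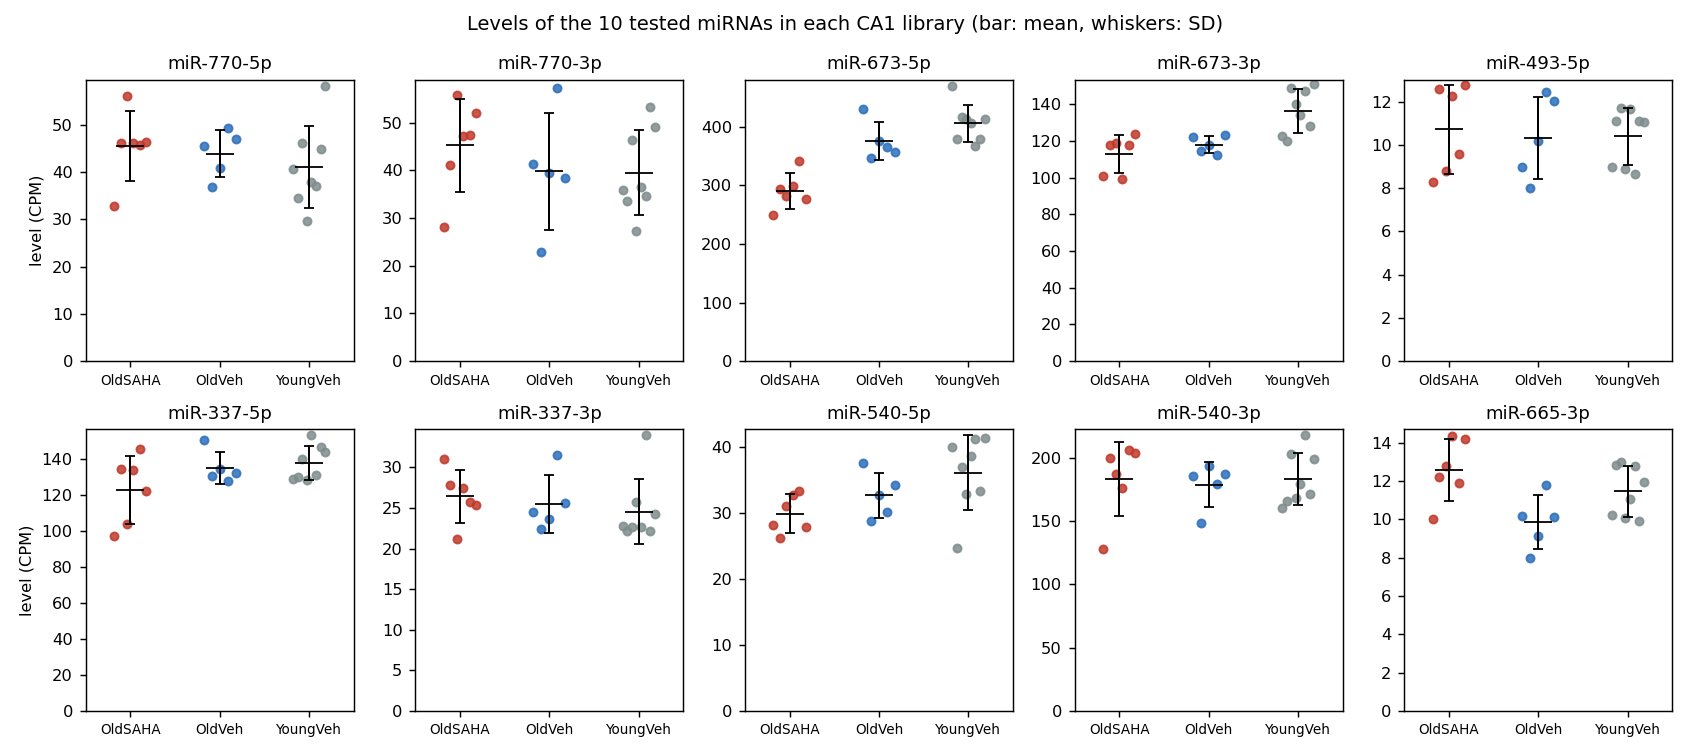
Level in CPM (y axis, from 0) of each of the 10 tested Meg3-side miRNAs in every library, 1 point per library, for OldSAHA (n = 6), OldVeh (n = 5) and YoungVeh (n = 8); horizontal bars are means and whiskers SD. miR-673-5p is the panel in which all 6 OldSAHA libraries (249.8 to 342 CPM) lie below all 5 OldVeh libraries (348 to 430.4 CPM).

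The first comparison asks which Meg3-side miRNAs differed in aged CA1 between SAHA and vehicle. miR-673-5p fell in OldSAHA, and no other tested arm passed the test in either direction. Its level was 249.8 CPM in the lowest, 288 CPM in the median and 342 CPM in the highest OldSAHA library. In OldVeh libraries 1 to 5 it was 430.4, 348, 376, 366 and 357 CPM. All 6 OldSAHA libraries were below all 5 OldVeh libraries, OldSAHA 1 being the lowest and OldSAHA 5 the highest of the treated ones. The means were 291 ± 30.6 CPM in OldSAHA (SD, n = 6) and 375 ± 32.6 CPM in OldVeh (SD, n = 5). That is a log2 fold change of -0.37 ± 0.08 (SE), or 0.774-fold, with an adjusted p of 0.00937 by edgeR's quasi-likelihood test over all 509 miRNAs.

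This 1 call of 10 stands against 4.32% of all 509 tested miRNAs called in either direction and 3.14% called lower, and the 1 arm without overlap between groups stands against 3.34% of all tested miRNAs lying lower without overlap. The call remained when any 1 library was left out (adjusted p 0.00505 to 0.0365). Without OldSAHA 1 and YoungVeh 6 the log2 fold change was -0.33 (edgeR adjusted p 0.00984). Without the 4 libraries high in endothelial and mural miRNAs, an alternative chosen after the data were seen, it was -0.33 (edgeR adjusted p 0.0402).

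The summed level of the neuron-enriched list was also lower in OldSAHA. All 15 of that list had counts in every group, so none was at 0, and their sum was 73343 to 79460 CPM in OldSAHA libraries, 86230 to 91660 CPM in OldVeh libraries and 85088 to 95587 CPM in YoungVeh libraries. The OldSAHA sums lay below all others. In OldSAHA against OldVeh, edgeR called 3 of the 15 lower, beside 3.14% of all 509, and 0 higher. The median log2 fold change of the 15 was -0.19. Between OldSAHA and OldVeh, edgeR called 0 of the tested miRNAs of 6 other lists, beside 4.32% of all 509 called in either direction. Tested were 5 of 5 oligodendrocyte, 7 of 10 microglia and immune, and 5 of 5 erythrocyte miRNAs. So were 3 of 9 choroid plexus, 5 of 10 epithelial, and 6 of 6 endothelial and mural miRNAs. Of the 9 muscle miRNAs 2 were tested and 1 was called higher. The median log2 fold changes were 0.05 for oligodendrocyte, 0.17 for microglia and immune, -0.05 for erythrocyte and 0.09 for choroid plexus miRNAs. They were -0.09 for epithelial, 0.21 for endothelial and mural, and 0.66 for muscle miRNAs. The summed levels of these 7 lists overlapped between the 2 groups. The part of these lists in the lower miR-673-5p was not tested. In bulk tissue, fewer cells of a type and less RNA per cell cannot be told apart.

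The other arm of the same hairpin, miR-673-3p, had 113 ± 10.3 CPM in OldSAHA and 118 ± 4.85 CPM in OldVeh, a log2 fold change of -0.06 ± 0.08 (edgeR adjusted p 0.722). Its ranges overlapped, with 99.4 to 124 CPM in OldSAHA and 112 to 123 CPM in OldVeh libraries. With the arms summed, miR-673 had a log2 fold change of -0.27 ± 0.07 (edgeR adjusted p 0.0399).

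The positive value of largest size was that of miR-665-3p, which did not pass the test. It had 10.02 CPM in the lowest, 12.5 CPM in the median and 14.4 CPM in the highest OldSAHA library, against 10.2, 7.99, 9.13, 11.8 and 10.2 CPM in OldVeh libraries 1 to 5. All OldSAHA libraries except OldSAHA 1 were above all OldVeh libraries. The means were 12.6 ± 1.62 CPM in OldSAHA and 9.85 ± 1.41 CPM in OldVeh, a log2 fold change of 0.35 ± 0.13 (edgeR adjusted p 0.116).

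The remaining 7 arms had log2 fold changes between -0.14 and 0.19. miR-337-5p had 123 ± 18.997 CPM in OldSAHA and 135 ± 9.04 CPM in OldVeh (log2 fold change -0.14 ± 0.10). Its spread was wider in OldSAHA, where OldSAHA 1 and 3 had 97.1 and 103.8 CPM. miR-540-3p, the second most abundant arm, had 184 ± 29.4 CPM in OldSAHA and 179 ± 17.8 CPM in OldVeh (0.04 ± 0.11), and miR-540-5p had 29.9 ± 2.93 and 32.7 ± 3.44 CPM in these groups (-0.13 ± 0.12). miR-770-5p, from the hairpin inside Meg3, had 45.5 ± 7.45 CPM in OldSAHA and 43.9 ± 5.05 CPM in OldVeh (0.05 ± 0.14). miR-770-3p had 45.3 ± 9.76 and 39.8 ± 12.2 CPM in these groups (0.19 ± 0.20). miR-493-5p had 10.7 ± 2.05 CPM in OldSAHA and 10.3 ± 1.91 CPM in OldVeh (0.05 ± 0.15), and miR-337-3p had 26.4 ± 3.26 and 25.5 ± 3.56 CPM (0.05 ± 0.12). The median log2 fold change of the 10 arms was 0.04, beside -0.01 over all 509, and 4 of 10 were negative, beside 261 of 509.

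**Figure D2:**
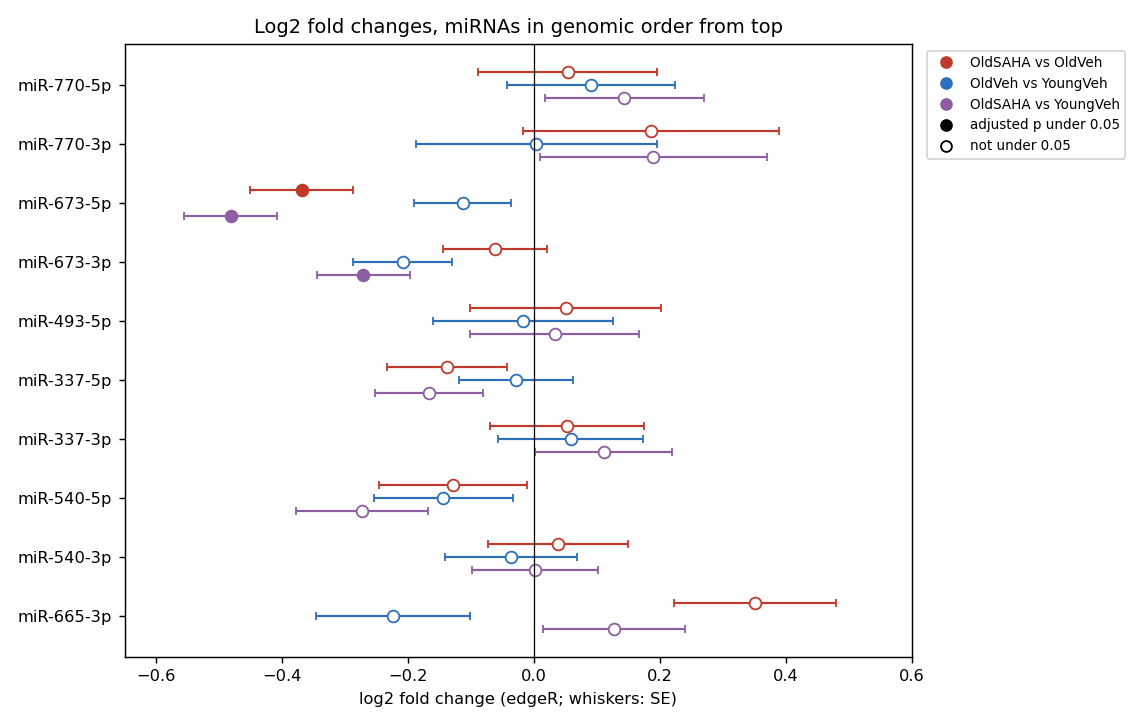
Log2 fold change (x axis) with its SE as whiskers for each of the 10 tested arms (y axis, in genomic order from Meg3 at the top), for OldSAHA against OldVeh, OldVeh against YoungVeh and OldSAHA against YoungVeh; filled points have an edgeR adjusted p under 0.05. Filled points stand only at miR-673-5p (-0.37 and -0.48) and miR-673-3p (-0.27 against YoungVeh).

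The second comparison asks what differed with age under vehicle. None of the 10 tested arms passed edgeR's quasi-likelihood test, where 11 of 509 miRNAs did (2.16%). At an unadjusted p under 0.05, edgeR gave 1 of 10 arms, beside 80 of 509 miRNAs (15.7%). DESeq2 and limma-voom also called 0 of 10. The arm with the unadjusted p under 0.05 was miR-673-3p, with a log2 fold change of -0.21 ± 0.08 (edgeR adjusted p 0.200). It had 122, 114, 118, 112 and 123 CPM in OldVeh libraries 1 to 5, against 120.3 CPM in the lowest, 137 CPM in the median and 151 CPM in the highest YoungVeh library. In OldVeh 3 of 5 libraries lay below all 8 YoungVeh libraries, and the ranges overlapped.

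miR-673-5p had 375 ± 32.6 CPM in OldVeh and 406 ± 32.1 CPM in YoungVeh, a log2 fold change of -0.11 ± 0.08 (edgeR adjusted p 0.469). miR-665-3p had 9.85 ± 1.41 CPM in OldVeh and 11.5 ± 1.33 CPM in YoungVeh (-0.22 ± 0.12, edgeR adjusted p 0.367), so its values ran below YoungVeh in OldVeh and above OldVeh in OldSAHA, with neither difference past the test. miR-540-5p had 32.7 ± 3.44 CPM in OldVeh and 36.1 ± 5.69 CPM in YoungVeh (-0.14 ± 0.11). The other 6 arms had log2 fold changes from -0.04 to 0.09. The median of the 10 was -0.03, beside 0.00 over all 509, and 7 of 10 were negative, beside 259 of 509. Among the marker lists, 1 of 7 tested microglia and immune miRNAs was called higher in OldVeh and 1 lower. Their sum was 1490 to 1822 CPM in OldVeh and 1353 to 1478 CPM in YoungVeh libraries. Epithelial miRNAs summed to 224 to 277 CPM in OldVeh and 282 to 389 CPM in YoungVeh, with 0 of 5 called. The part of these lists in the values of the arms was not tested.

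The third comparison sets treated aged mice against young ones, so age and SAHA both differ between its groups, and it shares OldSAHA with the first comparison and YoungVeh with the second. Both arms of miR-673 fell in OldSAHA, 2 of 10 tested arms, where 13.9% of all tested miRNAs were called in either direction and 8.64% called lower. miR-673-5p had 249.8, 288 and 342 CPM in the lowest, median and highest OldSAHA library, against 367, 410.2 and 469.7 CPM in the lowest, median and highest YoungVeh library. No OldSAHA library reached a YoungVeh library, beside 2.55% of all tested miRNAs lying lower without overlap. The means were 291 ± 30.6 CPM in OldSAHA (SD, n = 6) and 406 ± 32.1 CPM in YoungVeh (SD, n = 8), a log2 fold change of -0.48 ± 0.07 with an adjusted p of 0.000238 by edgeR. Over the 3 groups, OldSAHA had the lowest, OldVeh the middle and YoungVeh the highest mean for miR-673-5p, miR-673-3p, miR-337-5p and miR-540-5p, while the lowest mean was that of OldVeh for 3 of the other arms and of YoungVeh for 3.

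miR-673-3p had 99.4, 118 and 124 CPM in the lowest, median and highest OldSAHA library, against 120.3, 137 and 151 CPM in YoungVeh. In OldSAHA 5 of 6 libraries lay below all 8 YoungVeh libraries, the exception being OldSAHA 6. The log2 fold change was -0.27 ± 0.07 (edgeR adjusted p 0.0163). Without OldSAHA 4 the call ended (-0.22, edgeR adjusted p 0.0689). It also ended without OldSAHA 1 and YoungVeh 6 (-0.22, edgeR adjusted p 0.0509), without the 4 libraries high in endothelial and mural miRNAs (-0.24, adjusted p 0.0617) and in an edgeR fit of the compared groups alone (-0.24, adjusted p 0.0543).

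Marker miRNAs were called in this comparison too, beside 13.9% of all 509 called in either direction and 8.64% called lower. Of 15 neuron-enriched miRNAs 3 were called lower in OldSAHA and 0 higher, with a median log2 fold change of -0.14. Of the tested miRNAs of the other lists, 1 of 5 oligodendrocyte miRNAs rose, 3 of 7 microglia and immune miRNAs rose and 1 fell, 2 of 5 epithelial miRNAs fell, and 1 of 2 muscle miRNAs rose. For the erythrocyte, choroid plexus, and endothelial and mural lists, 0 of 5, 0 of 3 and 0 of 6 tested miRNAs were called. Larger medians than that of the neuron-enriched list were 0.38 for oligodendrocyte, 0.49 for microglia and immune, and 0.51 for muscle miRNAs. Those of epithelial and erythrocyte miRNAs were -0.47 and -0.22. The choroid plexus median was 0.01, and the endothelial and mural one 0.10. The part of these lists in the lower miR-673 arms was not tested.

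miR-540-5p had 29.9 ± 2.93 CPM in OldSAHA and 36.1 ± 5.69 CPM in YoungVeh, a log2 fold change of -0.27 ± 0.11 that did not pass the test (edgeR adjusted p 0.0854). YoungVeh 2, at 24.7 CPM, was the lowest of all libraries for this arm, and without it the edgeR adjusted p was 0.0125. miR-337-5p had 123 ± 18.997 CPM in OldSAHA and 138 ± 9.63 CPM in YoungVeh (-0.17 ± 0.09, edgeR adjusted p 0.176). The other 6 arms had log2 fold changes from 0.00 to 0.19. The median of the 10 was 0.02, beside -0.03 over all 509, and 4 of 10 were negative, beside 280 of 509.

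Because both arms of a hairpin come from 1 transcript in 1 library, their ratio does not depend on how libraries are scaled. The ratio could be tested with limma for 4 of the 6 hairpins, among 149 precursors with at least 10 mean counts in both arms. For miR-673 the ratio uses the same miR-673-5p counts as above and is no separate evidence for that change. The 5p to 3p ratio of miR-673 was 2.23 in the lowest, 2.49 in the median and 3.01 in the highest OldSAHA library, against 3.52, 3.04, 3.18, 3.25 and 2.89 in OldVeh libraries 1 to 5. In OldSAHA 4 of 6 libraries lay below all OldVeh libraries. The means were 2.58 ± 0.308 in OldSAHA and 3.18 ± 0.236 in OldVeh, a difference of -0.30 ± 0.10 in log2 ratio (limma adjusted p 0.0439).

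**Figure D3:**
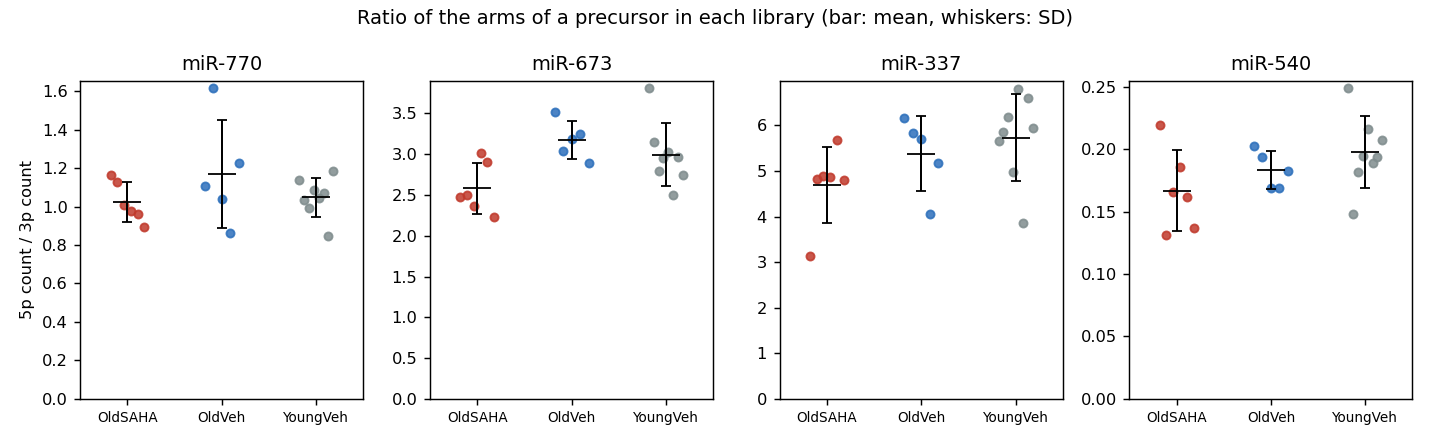
Ratio of 5p to 3p counts (y axis, from 0) of miR-770, miR-673, miR-337 and miR-540 in each library of OldSAHA, OldVeh and YoungVeh; bars are means and whiskers SD. For miR-673 the means are 2.58, 3.18 and 2.99, and for miR-337 the lowest OldSAHA library stands at 3.13.

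miR-673 was 1 of 4 hairpins called, beside 14.1% of the 149 precursors called in either direction. It was the 1 precursor of 149 called with a lower ratio (0.671%), while 20 were called with a higher one. Differences were negative for 61 of the 149. The median difference over all 149 precursors was 0.06. Of the neighbours, 3 of 5 Rtl1-antisense hairpins (miR-127, miR-136 and miR-433) were called with a higher ratio in OldSAHA. So were 2 of 25 hairpins of the miR-379 to miR-410 list (miR-379 and miR-485), and none was called with a lower one. Without a call, the difference was negative for 1 of the 5 and 11 of the 25. The lowest was that of miR-539, at -0.67 (limma adjusted p 0.0699), below the value of miR-673. The call for miR-673 was near the threshold: it ended in 12 of 19 fits that left out 1 library (adjusted p over all 19 from 0.0227 to 0.126), those without OldSAHA 1, 2, 3 or 6, OldVeh 1, 3 or 4, or YoungVeh 2, 4, 5, 7 or 8. The log2 difference was -0.35 to -0.26 over these 19 fits, beside -0.30 with all libraries, and leaving out a YoungVeh library does not change it. The largest adjusted p of the 19 was that without OldVeh 1 (log2 difference -0.27, limma adjusted p 0.126). Without the 4 libraries high in endothelial and mural miRNAs the difference was -0.28 (limma adjusted p 0.158).

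The other 3 hairpins also had negative values in OldSAHA against OldVeh, none past the limma test. The ratio of miR-337 was 4.70 ± 0.836 in OldSAHA and 5.38 ± 0.826 in OldVeh (log2 difference -0.20 ± 0.16). That of miR-540 was 0.167 ± 0.0328 in OldSAHA and 0.183 ± 0.0149 in OldVeh (-0.15 ± 0.13), and that of miR-770 was 1.02 ± 0.104 in OldSAHA and 1.17 ± 0.282 in OldVeh (-0.17 ± 0.14). In OldVeh against YoungVeh, limma called 0 of the 4 hairpins and 0 of 149 precursors, with the 4 differences between -0.10 and 0.13. In OldSAHA against YoungVeh it called 0 of 4, beside 10.7% of the 149, with differences of -0.21 ± 0.09 for miR-673 (adjusted p 0.113), -0.25 ± 0.12 for miR-540 (0.157), -0.29 ± 0.14 for miR-337 (0.173) and -0.04 ± 0.12 for miR-770 (0.910). Without OldSAHA 1 the value of miR-540 passed (adjusted p 0.0470), and without YoungVeh 6 that of miR-673 passed (0.0493).

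**Figure D4:**
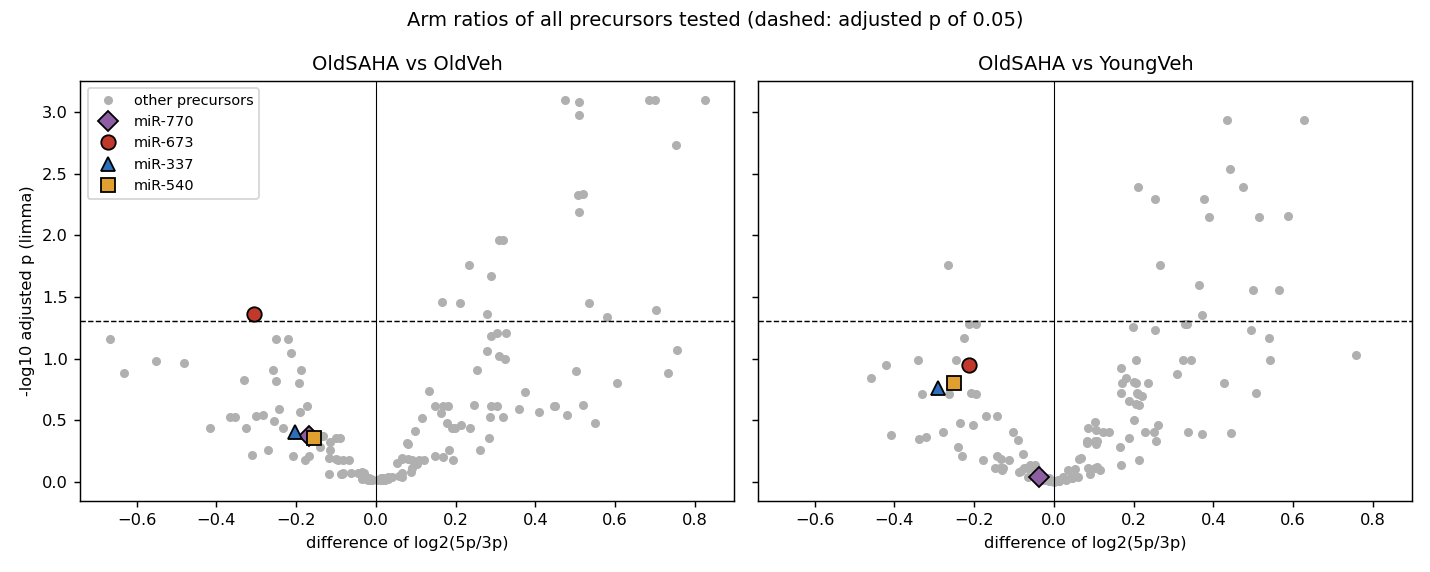
Difference of log2(5p/3p) between groups (x axis) against -log10 of the limma adjusted p (y axis) for 149 precursors, in OldSAHA against OldVeh (left) and OldSAHA against YoungVeh (right). Larger coloured symbols are the 4 Meg3-side hairpins, all at negative differences, and only miR-673 on the left lies above the dashed line at an adjusted p of 0.05.

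The Meg3-side arms were set beside the rest of the region. In OldSAHA against OldVeh, 1 of 10 tested arms of the Rtl1-antisense list, whose hairpins lie opposite Rtl1, and 6 of 62 of the miR-379 to miR-410 list, which lies farther downstream, were called lower by edgeR, and none higher, beside 3.14% of all 509 called lower. The median log2 fold changes were 0.04 for the Meg3-side arms, 0.00 for the Rtl1-antisense list and 0.01 for the miR-379 to miR-410 list, beside -0.01 over all 509. In OldVeh against YoungVeh, 0 of 10 and 0 of 62 were called, with medians of -0.04 and -0.01. In OldSAHA against YoungVeh, 1 of 10 and 6 of 62 were called lower, beside 8.64% of all 509, with medians of -0.05 for both lists. No test of a difference between these stretches was made.

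**Figure D5:**
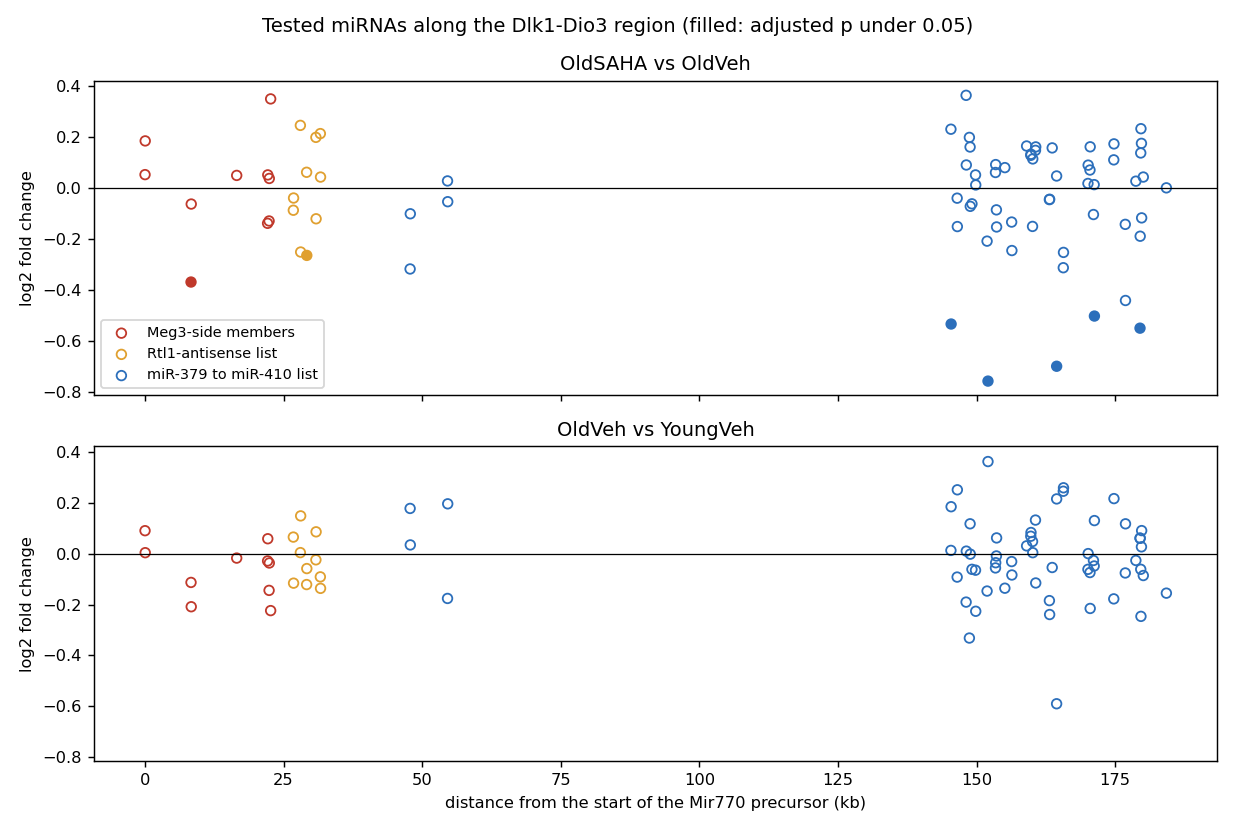
Log2 fold change (y axis) of 79 tested miRNAs of the region against distance in kb from the start of the Mir770 precursor (x axis), for OldSAHA against OldVeh (top) and OldVeh against YoungVeh (bottom); filled points have an edgeR adjusted p under 0.05. In the top panel the filled point among the Meg3-side arms is miR-673-5p at -0.37, and the bottom panel holds no filled point. A further 3 tested miRNAs of the region had no matched position and are not drawn.

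How the arms varied between libraries of the same group was described with correlations over the 19 libraries, after the mean of each group was subtracted from log2 CPM. These points share their library, its depth and its scaling, and no test was made. The arms of miR-770 varied together (Pearson r of 0.85, Spearman rho of 0.90), those of miR-540 less so (0.39 and 0.38), and those of miR-673 (0.14 and 0.10) and miR-337 (-0.16 and -0.07) hardly at all. For each of the 10 arms the 3 most similar miRNAs of other precursors were taken, by Pearson r over all 19 libraries. Of these 30, 16 were Meg3-side miRNAs or on the Rtl1-antisense or miR-379 to miR-410 lists (53.3%), which together hold 82 of the 509 tested miRNAs (16.1%) and are called the region in what follows. Positions of other tested miRNAs were not checked, so a miRNA on none of these lists may still lie in Dlk1-Dio3.

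The closest pair was miR-540-3p with miR-107-3p, which is on none of these lists (r of 0.91, rho of 0.89, and r of 0.83 without the 2 libraries farthest from the median). Next for miR-540-3p were miR-300-3p and miR-370-5p of the region, at r of 0.86 and 0.85. miR-770-3p was closest to miR-543-3p (r of 0.85, rho of 0.84, and 0.78 without the 2 farthest), miR-369-5p (r of 0.81) and miR-666-3p (r of 0.80), all of the region. miR-770-5p was closest to miR-487b-3p of the region (r of 0.85, rho of 0.75, and 0.74 without the 2 farthest), miR-335-3p (r of 0.84) and miR-1247-5p (r of 0.82). miR-493-5p was closest to miR-369-5p (r of 0.74), miR-376b-3p (0.72) and miR-323-5p (0.69), again all of the region.

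miR-673-5p and miR-673-3p had different neighbours. miR-673-5p was closest to miR-222-3p (r of 0.76, rho of 0.79, and 0.62 without the 2 farthest), miR-412-5p of the region (r of 0.73) and miR-138-5p, which is on the neuron-enriched list (r of 0.70). miR-673-3p was closest to miR-540-3p (r of 0.75, rho of 0.81, and 0.82 without the 2 farthest), miR-410-3p of the region (r of 0.70) and miR-676-5p (r of 0.70). miR-337-5p was closest to miR-328-3p (r of 0.81), miR-221-3p (0.80) and miR-421-3p (0.77). miR-337-3p was closest to miR-125b-5p (r of 0.77 with all libraries and 0.49 without the 2 farthest), miR-16-1-3p (r of 0.76) and miR-325-3p (r of 0.74). miR-540-5p was closest to miR-376a-3p of the region (r of 0.70), miR-130b-3p (0.69) and miR-877-3p (0.65). Without the 2 farthest libraries these were 0.41, 0.68 and 0.47. miR-665-3p was closest to miR-666-3p (0.70), miR-434-5p (0.64) and miR-540-3p (0.63), all of the region. Without the 2 farthest libraries these were 0.49, 0.55 and 0.35, so they rested in part on single libraries.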

How the data were processed

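The authors deposited raw counts, a whole number for each mature miRNA in each library. Per the submitters' processing notes, the tools were HTSeq, STAR, cutadapt and CASAVA 1.8.2, with the build mm10. For the miRNA annotation, the release was not given in the sources used here. Libraries were made with TruSeq reagents from total RNA, per the labels. Of the 1148 miRNAs listed, 255 had a count in no library. The 4 HTSeq summary lines held 0 throughout and were dropped, so the share of unassigned reads is unknown. Reads carry no molecular identifiers, and limits from counts cover counting error only.

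Groups came from the labels. filterByExpr (minimum count 10, total 15) kept 509 miRNAs. edgeR 4.0.16 (R 4.3.3; robust quasi-likelihood F test on TMM-scaled counts, a term for each group, all 19 libraries, common biological coefficient of variation 0.152) gave p-values with Benjamini-Hochberg adjustment within a comparison, and under 0.05 is a call. Arm ratios, log2 of (5p + 0.5)/(3p + 0.5), were fitted with limma 3.58.1. Both procedures were tried on simulated data. Of simulated 1.25-fold changes edgeR recovered 37.3% in OldSAHA against OldVeh, 34.3% in OldVeh against YoungVeh and 49.3% in OldSAHA against YoungVeh. Changes of that size could therefore be missed. The arm-ratio simulation used only changes larger than those reported here. No library was a copy of another of its group: chi-square divided by its degrees of freedom ran from 27.4 to 329 over 53 pairs of the same group. Pairs from different groups were not checked this way. The Meg3-side miRNAs and the lists (neighbouring stretches, marker miRNAs) were chosen with earlier results of these data known. All 12 arms are accounted for, and called arms and the leading arm of each hairpin get fuller values. For each tested arm the 3 most correlated miRNAs of other precursors were named. Alternatives were other scaling and filters, DESeq2 1.42.0, limma-voom, the compared groups alone, summed arms, removal of the 3 miRNAs with most counts, of each library in turn and of libraries that stood apart, and a replicate block.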

Additional observations from a re-analysis of the deposited data

Results flagged for a closer look

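Among 42 sets of values (levels and arm ratios by group), 2 held a library far from the others of its group, and chance gives about 1 in 20. The level of miR-337-3p was 34.0 CPM in YoungVeh 6, against 22.2 to 25.7 CPM in the other 7 YoungVeh libraries. The 5p to 3p ratio of miR-337 was 3.13 in OldSAHA 1, against 4.81 to 5.67 in the other 5 OldSAHA libraries. Without these libraries together, miR-337 arms and ratio stayed uncalled in all 3 comparisons.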

How the results depend on the processing

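The number of Meg3-side arms called was unchanged in OldSAHA against OldVeh (1) and OldVeh against YoungVeh (0) under every alternative run. In OldSAHA against YoungVeh it was 1 in place of 2 in the compared groups alone, with summed arms, without OldSAHA 1 and YoungVeh 6, and without the 4 libraries high in endothelial and mural miRNAs, and 1 to 3 with 1 library left out. For arm ratios in OldSAHA against OldVeh the count was 0 in place of 1 under the replicate block and without those 4 libraries, and 0 to 1 with 1 library left out. In OldSAHA against YoungVeh it was 1 in place of 0 without OldSAHA 1 and YoungVeh 6 (miR-540, limma adjusted p 0.0420), and 0 to 1 with 1 library left out. Summed arms merge 2 tests into 1; the cause of the other changes was not tested.

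Signs turned only for log2 values near 0. In OldSAHA against OldVeh these were miR-337-3p (-0.00036 without OldSAHA 1 and YoungVeh 6) and miR-540-3p (-0.013 under the block). In OldVeh against YoungVeh they were miR-337-5p (0.0038) and miR-493-5p (0.015) by library size only, miR-540-3p by limma-voom (0.019), miR-540-3p (0.0029) and miR-770-3p (-0.022) without OldSAHA 1 and YoungVeh 6, miR-493-5p (0.011) and miR-540-3p (0.020) under the block, and miR-493-5p (0.037) and miR-540-3p (0.0082) without the 4 libraries. With 1 library left out, ranges crossed 0 in OldSAHA against OldVeh for miR-493-5p (-0.024 to 0.12), miR-540-3p (-0.019 to 0.12) and miR-770-5p (-0.016 to 0.13). In OldVeh against YoungVeh they did for miR-337-3p (-0.0069 to 0.14), miR-337-5p (-0.052 to 0.012), miR-493-5p (-0.085 to 0.075), miR-540-3p (-0.063 to 0.038), miR-770-3p (-0.14 to 0.16) and the miR-337 ratio (-0.17 to 0.011). In OldSAHA against YoungVeh they did for miR-493-5p (-0.022 to 0.096), miR-540-3p (-0.031 to 0.087) and the miR-770 ratio (-0.081 to 0.00044).

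Replicate numbers did not pair the libraries: 16 same-number pairs had r of -0.32 to 0.29, 4 over 0.1, and 2 of 19 libraries correlated best with their own number. With the replicate block, miR-673-5p in OldSAHA against OldVeh had an edgeR adjusted p of 0.0493, and the miR-673 ratio a limma adjusted p of 0.0576. Depth limited miR-493-3p and miR-665-5p.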
